A study of Homo sapiens with 9 samples.

Results

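The cytosolic ribosomal protein genes were taken by symbol: RPL or RPS followed by a number and at most a final A, X or L, together with RPLP0, RPLP1, RPLP2 and RPSA. The rule found 81 genes among the 60612 in the deposited table, 49 of the large subunit and 32 of the small subunit. They lie on 21 chromosomes, with 12 on chromosome 19 and 4 on the X chromosome, and 28 of them carry small nucleolar RNA genes (59 in all) within their bounds. The RNA came from HepG2, an established human liver cancer cell line, in 9 libraries. Cells received 50 µM PQY23_1 (3 libraries), 50 µM PQY09 (3 libraries) or 0.1% DMSO, the solvent control (3 libraries). PQY09 is Butyrolactone I per the title of the series, a fungal butenolide that inhibits cyclin dependent kinases, and PQY23_1 is a derivative of it; the stated aim was to find targets. The sources used here give neither the exposure time nor the structure of PQY23_1, nor whether compound-treated cells also received DMSO.

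A ribosome joins a large and a small subunit, each built from ribosomal RNA and one copy of nearly every ribosomal protein. Growing cells spend much of their transcription and translation on these proteins, and their mRNAs are long-lived and abundant. Most of these mRNAs begin with a 5′ terminal oligopyrimidine tract, a C followed by a run of C and T (U in the RNA), through which mTOR signalling and LARP1 set how much of the mRNA is translated. Control through the tract acts on translation and mRNA storage, which counts of total mRNA do not show directly.

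The starts of the members that the results turn on were read from RefSeq (GRCh38.p14) to show this shared sequence. Each window holds 10 bases before and 20 bases from an annotated start, on the strand of the mRNA. Capitals mark an unbroken run of C and T that begins with C at the start itself and is at least 5 bases long. The last pair has no such tract at the RefSeq start.
RPSA: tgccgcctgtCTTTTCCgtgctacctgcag
RPL7A: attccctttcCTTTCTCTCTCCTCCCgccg
RPS19: ccccgtcgttCCCTTTCCCCTggctggcag
RPL14: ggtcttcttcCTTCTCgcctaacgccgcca
RPL29: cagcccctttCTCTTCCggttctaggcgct
RPS12: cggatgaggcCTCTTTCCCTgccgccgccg
RPL27: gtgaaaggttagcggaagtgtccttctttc
RPS27L: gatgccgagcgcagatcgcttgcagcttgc

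The windows of RPSA, RPL14 and RPL29 are chr3:39406710-39406739 (plus strand), chr3:40457329-40457358 (plus strand) and chr3:51995876-51995905 (minus strand). Those of RPL7A, RPS19 and RPS12 are chr9:133348208-133348237, chr19:41860245-41860274 and chr6:132814559-132814588, all on the plus strand. RPL27 starts in chr17:42998409-42998438 (plus strand) and RPS27L in chr15:63157458-63157487 (minus strand). Of the 81 members, 64 had a start in the RefSeq table, and 46 of these (71.9%) had the tract at one or more of their starts, against 5.14% of all 27305 genes in the table. The share was 71.8% of 39 large subunit genes and 72.0% of 25 small subunit genes. The search covered that strand at the start only, so a start annotated a few bases away counts as no tract. RPL23, RPL23A, RPL30, RPL37, RPL39L, RPL3L, RPL5, RPL7, RPL8, RPS15A, RPS2 and RPS20 were among those not matched.

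Deposited counts summed to between 85050531 and 107538450 per library. Expression is given as CPM (counts scaled to library size) after TMM scaling, and as the authors' FPKM, a value per length, where genes are set side by side. Libraries of a group correlated at 0.977 to 0.980 over all tested genes, and libraries of different groups at 0.974 to 0.978. The 12 hepatocyte and HepG2 markers examined, among them ALB and AFP, were present in every library at 16.3 to 13227 CPM. Of 6 markers of other cell types, CD3E, COL1A2, KRT5 and HBB had no count in any library, and the highest value of PTPRC and PECAM1 was 1.41 CPM. Nothing in the labels says that the 3 libraries of a group were separate cultures, and p-values therefore refer to the spread of these libraries alone. In RNA from whole cultures, fewer cells with a transcript and less transcript per cell cannot be told apart.

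Of the 81 genes, 79 passed the filter on low counts: 47 of the large subunit and all 32 of the small subunit. RPL10L, a paralog of RPL10 known from testis, had 0 counts in all 9 libraries. RPL39L, the testis paralog of RPL39, had 8, 4 and 8 counts in the PQY09 libraries and 0 in the PQY23_1 and DMSO libraries; low values pile up at 4 in this table (10696 cells, against 4024 at 3 and 2277 at 5), and no fold was computed. RPL3L, the heart and muscle paralog of RPL3, was tested at under 1 CPM, with means of 0.735 ± 0.159 CPM under PQY23_1, 0.643 ± 0.150 CPM under PQY09 and 0.630 ± 0.121 CPM under DMSO (SD, n = 3). The other 78 tested genes averaged 99.1 to 1760 CPM under DMSO.

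Per length, these 78 genes spread over an 85.1-fold range under DMSO around a median of 142 FPKM. The highest was RPS12, of the small subunit, with 1083, 982 and 1027 FPKM on average under PQY23_1, PQY09 and DMSO. RPL19 followed with 838 ± 33.8 FPKM under DMSO, then RPL7A with 664 ± 5.74 FPKM and RPL41, which encodes the shortest ribosomal protein, with 648 ± 73.9 FPKM (SD, n = 3). The last pair of these differed by less than the SD of RPL41. The lowest was RPS29, with 12.1 ± 1.63 FPKM under DMSO, below RPS27L, a paralog of RPS27 known as a p53 target, with 14.6 ± 0.642 FPKM, and RPS28 with 39.5 ± 4.10 FPKM. RPS29 is annotated at chr14:49570984-49599164 in the table, and FPKM divides by the length the authors assigned to a gene, so levels of different genes also carry the gene models.

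**Figure D1:**
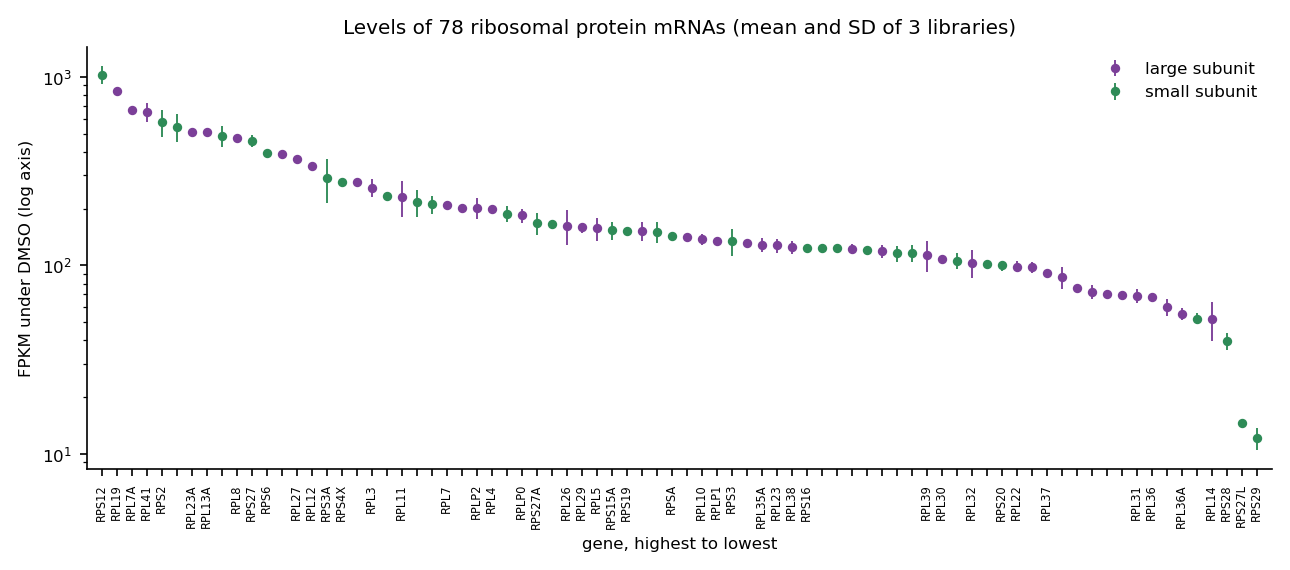
Level of 78 ribosomal protein mRNAs in the DMSO libraries, in FPKM on a log axis, ordered from highest to lowest; points are means and bars the SD of 3 libraries, in purple for the large and green for the small subunit, and genes named in the text carry a label. RPS12 is at 1027 FPKM and RPS29 at 12.1 FPKM, and genes of both subunits are found along the whole order.

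Ribosomal protein genes are known for many processed pseudogenes, near copies that can draw reads from the parent. The table held 1237 of them by symbol, of which 233 passed the filter, and their counts came to between 4.92 and 5.17 per 100 counts of the ribosomal protein genes in every library. For RPSA the copies held 41.5 to 46.7% of the parent's own count, for RPS28 41.3 to 54.0% and for RPL7 33.0 to 41.5%, so values of these genes are uncertain to that degree. For RPL7A the copies held 4.68 to 7.18%, for RPL29 1.99 to 5.52% and for RPS19 0.00782 to 0.0384%. By position, 18 members, some of them with counted pseudogenes as well, overlapped a gene that had at least 2% of the member's count, 4 of them on the same strand. The sources do not say whether counting used strand; RPL36, for example, overlaps LONP1, which had 83.7% of the count of RPL36.

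One library stood apart for these genes. Ribosomal protein mRNAs took 5.89, 4.89 and 4.99% of all counts in replicates 1, 2 and 3 of PQY23_1, against 5.25, 5.31 and 5.40% in the DMSO libraries. In the PQY09 libraries the shares were 5.01, 4.97 and 5.003%. PQY23_1 replicate 1 was thus above every other library, and the remaining PQY23_1 libraries were below every DMSO library. Means were 5.26 ± 0.551% under PQY23_1, 4.99 ± 0.0229% under PQY09 and 5.32 ± 0.0760% under DMSO (SD, n = 3 each). Replicate 1 was the highest of the 3 PQY23_1 libraries for 72 of the 79 tested members, against 37.8% of all tested genes.

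The median member stood 0.20 above the DMSO mean on the log2 scale in PQY23_1 replicate 1, and at -0.09 and -0.05 in replicates 2 and 3. In the PQY09 libraries it stood at -0.11, -0.15 and -0.09, and in the DMSO libraries at -0.03, -0.01 and 0.02. All 3 PQY09 libraries were thus below all 3 DMSO libraries. The subunits had like medians: in PQY23_1 replicate 1 the medians were 0.20 for the large and 0.20 for the small subunit. Large subunit counts were 1.52 to 1.62 times small subunit counts over the 9 libraries, and the groups overlapped in this ratio.

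**Figure D2:**
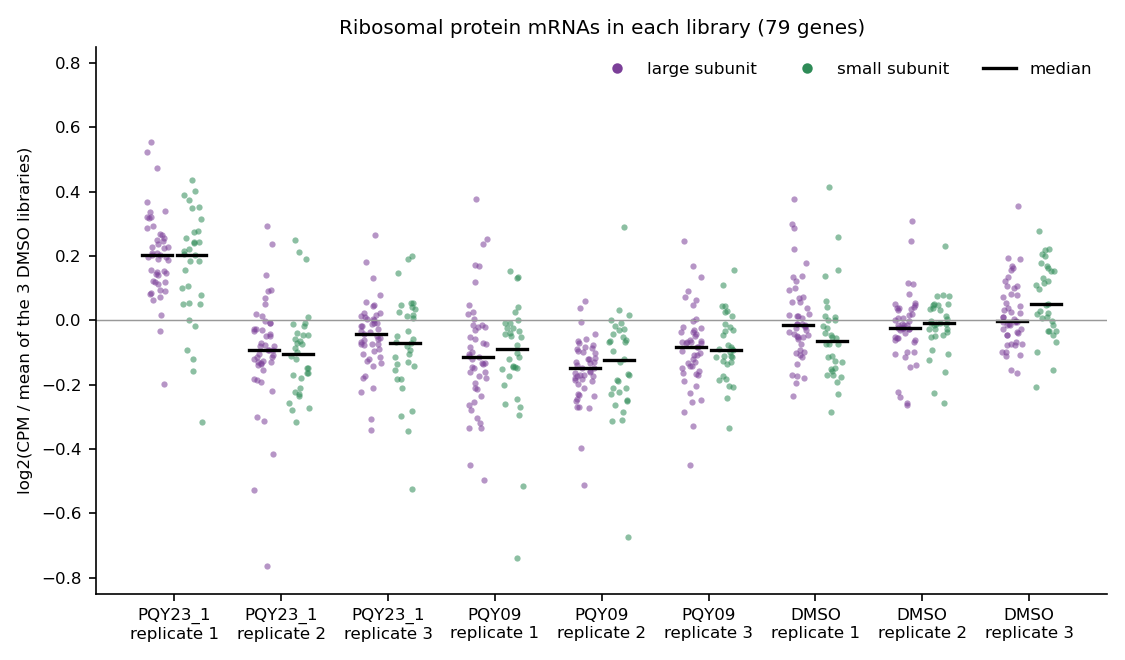
Each point is one of 79 ribosomal protein mRNAs in one library, as log2 of its CPM over the mean of the 3 DMSO libraries, with the large subunit in purple, the small subunit in green and black lines at the medians. PQY23_1 replicate 1 has its median at 0.20, while the other PQY23_1 libraries and the PQY09 libraries have medians from -0.15 to -0.05.

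Some other measures also set that library apart. Other genes of at least 100 CPM (1722 genes) were put in 3 equal classes by the length implied by counts and FPKM, and the median ribosomal protein gene falls in the shortest class. In PQY23_1 replicate 1 the median gene of the shortest class stood at 0.13, of the middle class at -0.01 and of the longest class at -0.14 against the DMSO mean, on the log2 scale. In the other 5 compound libraries the shortest class stood between -0.06 and 0.01. Mitochondrial ribosomal protein mRNAs stood at 0.18 and ribosomal protein pseudogenes at 0.30 in that library, while translation factors and other tract mRNAs stood at 0.02 and ribosome biogenesis genes at -0.02. Genes of the mitochondrial genome took 14.5, 16.4 and 16.4% of counts under PQY23_1, 12.9, 12.5 and 14.6% under PQY09 and 13.5, 12.6 and 14.1% under DMSO. By this share PQY23_1 replicates 2 and 3 were the highest libraries, and PQY23_1 replicate 1 was within the range of the PQY09 libraries. The part of transcript length or of the mitochondrial share in the ribosomal protein values was not tested, and results that rest on PQY23_1 replicate 1 are given with and without it.

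**Figure D3:**
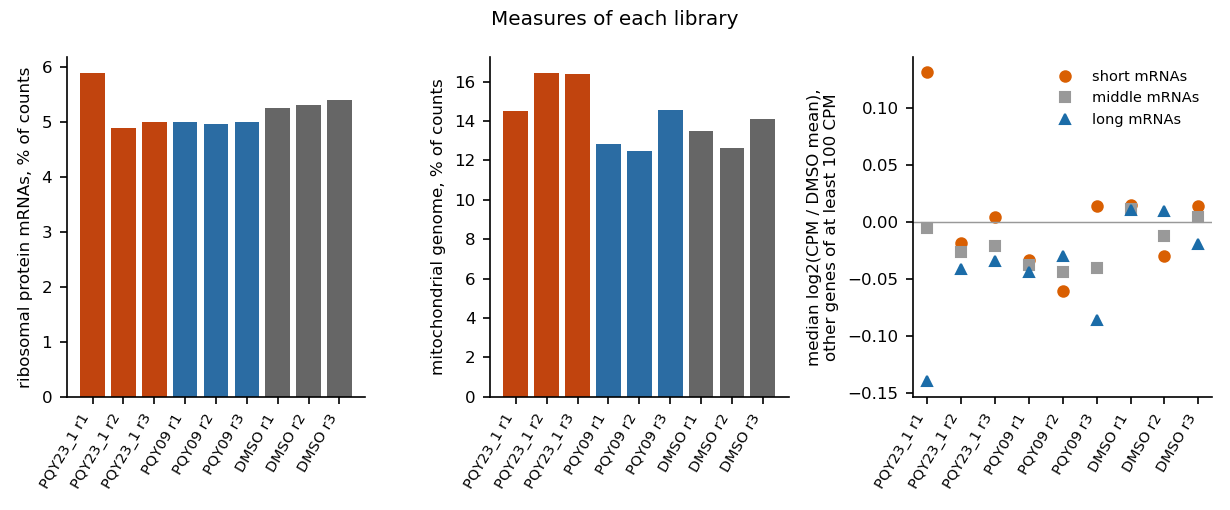
Bars show, for each library, the percent of counts in ribosomal protein mRNAs and in genes of the mitochondrial genome; the right plot shows the median log2 ratio to the DMSO mean of other genes of at least 100 CPM, split into short, middle and long mRNAs. PQY23_1 replicate 1 has 5.89% ribosomal protein counts and the widest gap between short (0.13) and long (-0.14) mRNAs.

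PQY09 against DMSO asks what Butyrolactone I does to these mRNAs. No member passed the test (edgeR's quasi-likelihood test, Benjamini-Hochberg adjusted p below 0.05), while 2.85% of all 20157 genes tested did. At an unadjusted p below 0.05 there were 10 of 79 members, all lower, against 7.13% of all genes that were lower at that level. Counted in either direction, this was 12.7% of members, against 15.6% of all genes. DESeq2 called RPL7A and RPSA, against 8.42% of all genes, and limma-voom called 0, against 3.16%. The members stood slightly below DMSO as a group: 69 of 79 had a log2 change below 0, against 49.5% of all genes, and the median change was -0.09 against 0.003 over all genes. Other genes of at least 100 CPM also stood mostly below the DMSO mean under PQY09. In replicates 1, 2 and 3 the shortest class stood at -0.03, -0.06 and 0.01 and the middle class at -0.04, -0.04 and -0.04. The longest class stood at -0.04, -0.03 and -0.09, and the median member at -0.11, -0.15 and -0.09. For 31 members (39.2%) every PQY09 library was below every DMSO library, against 11.5% of all genes, and for 0 every PQY09 library was above, against 12.9% of all genes. Of the 31, 22 were of the large (46.8% of 47) and 9 of the small subunit (28.1% of 32). The median changes were -0.09 for the large and -0.10 for the small subunit. With total counts in place of TMM scaling the median was -0.07 and 63 of 79 members were below 0.

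The median change was about as large as the error of a single gene. The median SE of a member's log2 change was 0.10, the 95% interval lay wholly below 0 for 10 members, and for 68 of the 79 members the interval lay within 0.5 on either side of 0, that is within 1.41-fold. PQY23_1 replicate 1 enters this comparison through the shared estimate of spread, the filter on low counts and the scaling. Without it RPSA and RPL27 were called, against 3.01% of all genes in that fit. There, 26 members had an unadjusted p below 0.05, all lower, against 7.72% of all genes that were lower at that level.

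RPSA, a small subunit protein also known as the laminin receptor precursor, stood lower under both compounds. It had 608, 531 and 520.2 CPM under PQY23_1 and 539.5, 551 and 559 CPM under PQY09, against 666, 662 and 654 CPM under DMSO. All 6 compound libraries were below all 3 DMSO libraries. The log2 change was -0.27 under PQY09 (SE 0.06, adjusted p = 0.0677, edgeR) and -0.26 under PQY23_1 (SE 0.06, adjusted p = 0.0796, edgeR), and both comparisons use the same DMSO libraries. It was called in 5 of 21 alternative analyses under PQY09 and in 4 of 21 under PQY23_1, always lower. RPSA lies at chr3:39406716-39412542 on the plus strand (hg38, as all gene positions here).

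RPL7A, of the large subunit, had 1247, 1234 and 1289 CPM under PQY09, against 1747, 1747 and 1787 CPM under DMSO. The groups are tight and far apart, and the log2 change of -0.49 (SE 0.13, adjusted p = 0.0987, edgeR) was the lowest among the members. Its PQY23_1 libraries had 1876, 1219.8 and 1674 CPM, so 1 of them was at the PQY09 level, and this spread enters the shared error. Without PQY23_1 replicate 2 RPL7A was called under PQY09 (log2 -0.49, adjusted p = 0.00474, edgeR), against 2.14% of all genes in that fit. It was called under PQY09 in 3 of 21 alternative analyses. The gene lies at chr9:133348218-133351426, plus strand.

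RPS19, the small subunit protein most often mutated in Diamond-Blackfan anaemia, had 373, 391 and 586 CPM under PQY09, against 616, 646 and 609 CPM under DMSO. PQY09 replicate 3 was close to the DMSO libraries and the other PQY09 libraries were well below them. The log2 change was -0.47 (SE 0.16, adjusted p = 0.199, edgeR). Without PQY09 replicate 3 it was -0.71 and was called (adjusted p = 0.0145, edgeR), against 1.33% of all genes in that fit. RPS19 was called under PQY09 in 1 of 21 alternative analyses.

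RPL32 and RPL14, both of the large subunit, made up the rest of the 4 lowest values. RPL32 had 328, 340.1 and 357 CPM under PQY09, against 398, 532 and 425 CPM under DMSO (log2 -0.40, adjusted p = 0.26, edgeR). RPL14 had 412, 430.2 and 438 CPM under PQY09, against 675, 445 and 467 CPM under DMSO (log2 -0.31, adjusted p = 0.509, edgeR). The DMSO libraries of both genes were wide and the PQY09 libraries narrow. Without DMSO replicate 1 the RPL14 value was -0.10.

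Smaller shifts with less spread gave the other low p-values. RPL27 had 710.2, 778 and 751 CPM under PQY09, against 859.6, 897 and 877 CPM under DMSO (log2 -0.23, SE 0.07). RPL4, which lines the exit tunnel, had 1158, 1155 and 1171 CPM under PQY09, against 1380.0, 1289 and 1272 CPM under DMSO (log2 -0.18, SE 0.06). RPL35A had 368, 389 and 383 CPM under PQY09, against 437, 477 and 412 CPM under DMSO (log2 -0.22, SE 0.07). In each of these 3 genes the groups did not overlap, and none passed the adjusted threshold. RPL13A, RPL38 and RPS16 were the remaining members with an unadjusted p below 0.05.

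**Figure D4:**
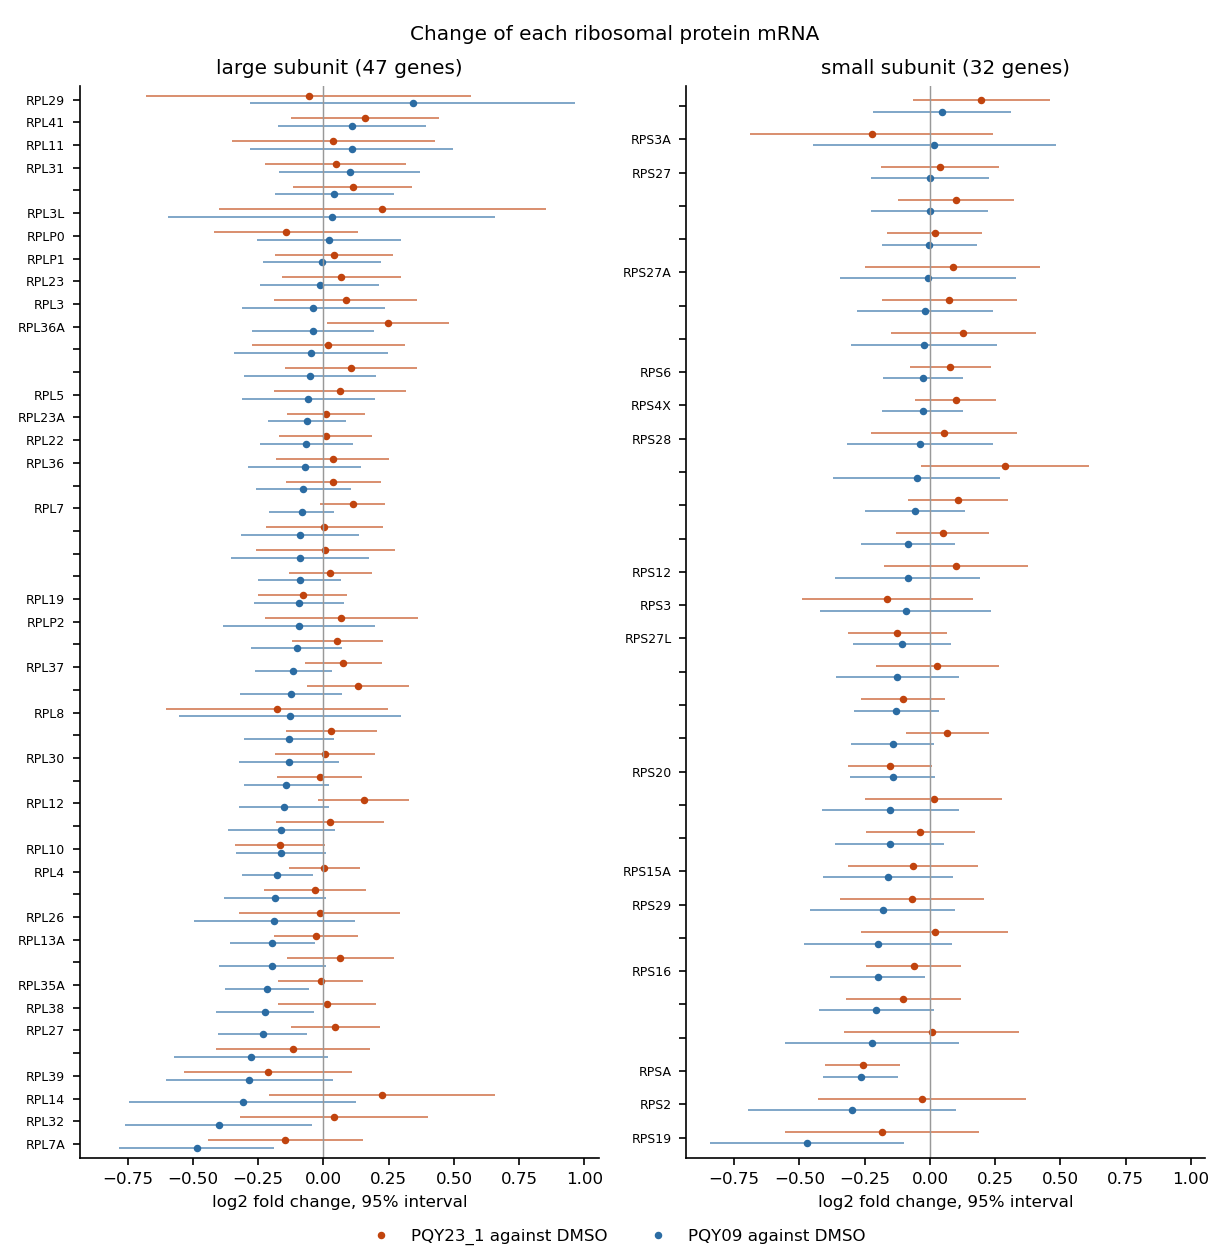
Log2 fold change of each tested ribosomal protein mRNA against DMSO, with 95% intervals, for PQY23_1 (red) and PQY09 (blue), by subunit and ordered by the PQY09 value, with labels on genes named in the text. Most PQY09 points lie left of 0 (69 of 79), most PQY23_1 points lie close to 0, and RPL29, RPL8, RPL14 and RPS3A have wide intervals.

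The highest values under PQY09 were RPL29, RPL41, RPL11 and RPL31. RPL29, of the large subunit, had 349, 750.5 and 338 CPM under PQY09, against 369, 399.7 and 366 CPM under DMSO. PQY09 replicate 2 had 2.18 times the mean of the other PQY09 libraries. The log2 value was 0.34 (SE 0.27), and without that library it was -0.14. The counts of RPL29 pseudogenes were about the same in that library (1474, against 1494 and 1526 in the other PQY09 libraries). RPL11, which with RPL5 and 5S rRNA binds MDM2, had 854, 652 and 851 CPM under PQY09, against 662, 608 and 917 CPM under DMSO. RPL41 (log2 0.11, SE 0.12) and RPL31 (log2 0.10, SE 0.12) also overlapped between the groups.

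The derivative PQY23_1 was set against the same DMSO libraries. No member passed edgeR's test, while 2.55% of all genes did; 2 of 79 had an unadjusted p below 0.05 (RPSA, lower, and RPL36A, higher), against 16.3% of all genes. DESeq2 called RPSA only, against 8.92% of all genes, and limma-voom called 0, against 2.77%. The median log2 change was 0.03, against 0.01 over all genes, with 53 of 79 members above 0 (51.1% of all genes); with total counts in place of TMM scaling it was -0.01, with 37 above 0. RPSA was the 1 member whose PQY23_1 libraries were all below the DMSO libraries, against 10.7% of all genes, and 0 members had them all above, against 11.8% of all genes. For 71 of 79 members the 95% interval lay within 1.41-fold on either side.

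The sign of the PQY23_1 median rests on the library that stood apart. Without PQY23_1 replicate 1 the median was -0.07, with 16 of 79 members above 0. RPSA was then called (log2 -0.33, adjusted p = 0.0124, edgeR), against 1.5% of all genes in that fit. There, 12 members had an unadjusted p below 0.05, all lower, against 7.15% of all genes that were lower at that level. Values among the highest in the full comparison carried that library as well. RPL36A, of the large subunit, had 360.0, 272 and 294 CPM under PQY23_1, against 242, 255 and 282 CPM under DMSO (log2 0.25, adjusted p = 0.279, edgeR), and it overlaps GLA on the other strand. RPL14 had 747, 636 and 470.3 CPM under PQY23_1, against 675, 445 and 467 CPM under DMSO (log2 0.22, SE 0.19). In both genes PQY23_1 replicate 1 was the highest of the 9 libraries and the groups overlapped. Without it the log2 value was 0.12 for RPL36A and 0.06 for RPL14.

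After RPSA, the lowest values under PQY23_1 were those of RPS3A, RPL39 and RPS19. RPS3A, of the small subunit, had 717, 757 and 531 CPM under PQY23_1, against 1017, 638 and 686 CPM under DMSO (log2 -0.22, SE 0.20). DMSO replicate 1 had 1.54 times the mean of the other DMSO libraries, and without it the value was 0.01. RPL39, at the exit tunnel, had 285, 211 and 241 CPM under PQY23_1 and 232, 233 and 236 CPM under PQY09, against 347, 256 and 251 CPM under DMSO, where replicate 1 was again the highest. Its log2 value under PQY23_1 was -0.21, and -0.05 without that DMSO library. RPL10, which joins the large subunit late in its assembly, had 729.6, 607 and 662 CPM under PQY23_1 and 676, 674 and 655 CPM under PQY09, against 693, 767 and 785 CPM under DMSO. Its log2 values were -0.17 (adjusted p = 0.319, edgeR) under PQY23_1 and -0.16 (adjusted p = 0.348, edgeR) under PQY09.

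**Figure D5:**
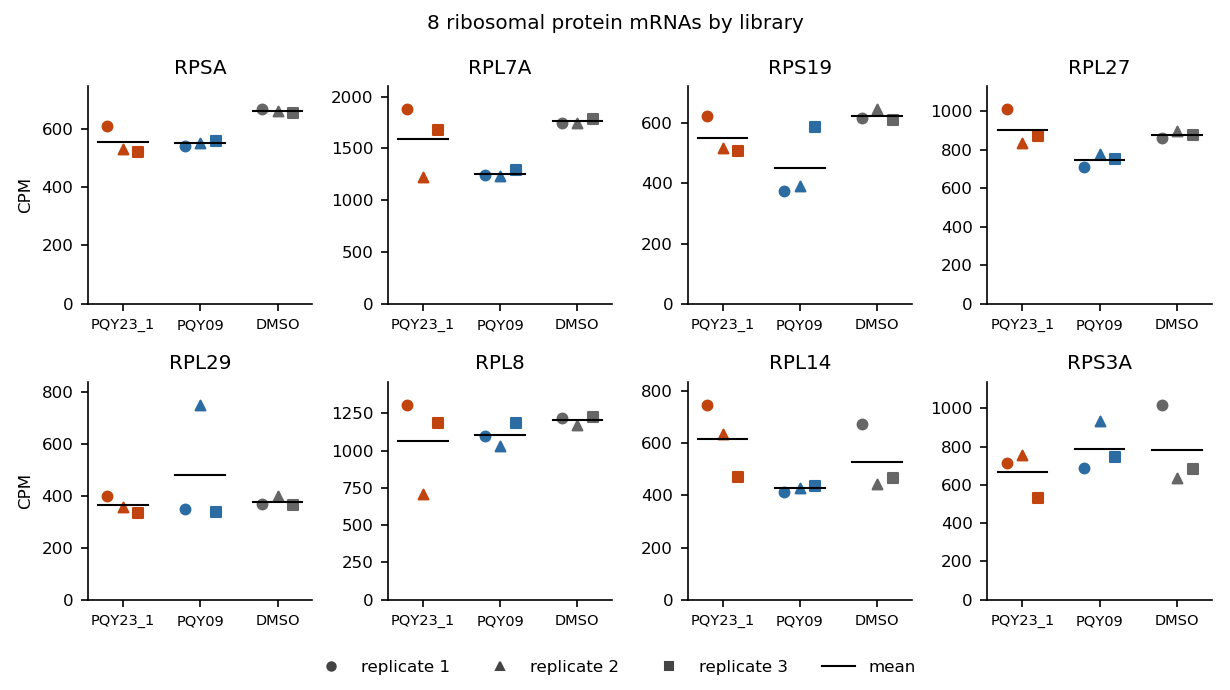
CPM of 8 ribosomal protein mRNAs in each library, from 0, with the replicate shown by the marker and the group mean by a line. RPSA is below all DMSO libraries in all 6 compound libraries, and single libraries stand away from their group for RPL29 (PQY09 replicate 2), RPL8 (PQY23_1 replicate 2) and RPS3A (DMSO replicate 1).

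PQY23_1 against PQY09 compares the derivative with its parent at the same dose. No member passed edgeR's test, while 2.22% of all genes did; 16 of 79 had an unadjusted p below 0.05, all higher under PQY23_1, against 7.44% of all genes that were higher at that level. DESeq2 called RPL12, RPL27 and RPL7, against 7.93% of all genes, and limma-voom called 0, against 2.45%. The median difference was 0.13 on the log2 scale, against -0.01 over all genes, and 69 of 79 members were higher under PQY23_1 (48.7% of all genes); with total counts in place of TMM scaling it was 0.08, with 62 of 79 higher. For 15 members every PQY23_1 library was above every PQY09 library, against 10.8% of all genes, and for 0 the reverse held, against 11.2% of all genes. The 15 were 13 of 47 large subunit genes (27.7%) and 2 of 32 small subunit genes (6.25%). The small subunit share was thus below that of all genes. Of the 16 members with an unadjusted p below 0.05, 14 were of the large (29.8% of 47) and 2 of the small subunit (6.25% of 32). Without PQY23_1 replicate 1 the median difference was 0.03 with 49 of 79 members higher. In that fit 9 members had an unadjusted p below 0.05, against 13.6% of all genes. Of the 9 members, 8 were higher, against 6.5% of all genes, and 1 was lower, against 7.06%. For 68 of 79 members the 95% interval of the difference lay within 1.41-fold, and for 16 members it lay wholly above 0.

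RPL12, of the large subunit stalk base, had 1227, 1017 and 1036 CPM under PQY23_1, against 858, 881 and 915 CPM under PQY09, a log2 difference of 0.31 (SE 0.08, adjusted p = 0.0875, edgeR). RPL27 had 1011, 835 and 872 CPM under PQY23_1, against 710.2, 778 and 751 CPM under PQY09 (log2 0.28, adjusted p = 0.107, edgeR). RPL7 had 774, 715 and 680.2 CPM under PQY23_1, against 637, 631 and 627 CPM under PQY09 (log2 0.20, adjusted p = 0.125, edgeR). The groups did not overlap in these 3 genes. In each, PQY23_1 replicate 1 was the highest of its group, so leaving it out could not bring an overlap. Without that library the log2 differences were 0.21 for RPL12, 0.19 for RPL27 and 0.14 for RPL7. The largest difference was that of RPL14, with 747, 636 and 470.3 CPM under PQY23_1, against 412, 430.2 and 438 CPM under PQY09 (log2 0.53, 95% interval 0.10 to 0.97, adjusted p = 0.233, edgeR). RPL32 and RPL7A followed at 0.44 and 0.34, and their groups overlapped. Without PQY23_1 replicate 1 the differences were 0.37 for RPL14, 0.37 for RPL32 and 0.20 for RPL7A. RPL7A was called without PQY23_1 replicate 2 (log2 0.50, adjusted p = 0.00927, edgeR), and RPS19 without PQY09 replicate 3 (log2 0.52, adjusted p = 0.0477, edgeR). The shares of all genes called in those fits were 1.36% and 1.32%. Each of these genes was called in 1 of 21 alternatives of this comparison.

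The lowest differences between the compounds were those of RPL29, RPS3A, RPLP0 and RPL11. RPLP0, the scaffold of the stalk that recruits elongation factors, had 911, 697 and 749 CPM under PQY23_1, 975, 888 and 781 CPM under PQY09 and 949.6, 784 and 872 CPM under DMSO. Its partners RPLP1 and RPLP2 had log2 differences of 0.05 and 0.16 between PQY23_1 and PQY09, against -0.17 for RPLP0, each with an SE of 0.10 to 0.13. The groups overlapped for all 3 stalk genes. RPL29 stood at -0.40 (SE 0.27), and without PQY09 replicate 2 the value was 0.08.

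A panel of members with known roles also held RPSA and RPS19, given above. For the 9 panel members that follow, the 95% intervals against DMSO included 0 under both compounds. RPS6, the substrate of S6 kinase, had 1465, 1221 and 1310.0 CPM under PQY23_1, 1254, 1216 and 1242 CPM under PQY09 and 1217, 1260.1 and 1307 CPM under DMSO. Its log2 changes were 0.08 under PQY23_1 and -0.03 under PQY09 (SE 0.07), and PQY23_1 replicate 1 was the highest library. RPS4X gave 0.10 and -0.03 (SE 0.07), RPL22 gave 0.01 and -0.07 (SE 0.08), and RPS27, with its zinc finger, gave 0.04 and 0.0008 (SE 0.10), PQY23_1 first in each case. RPS27A, made as a fusion with ubiquitin, gave 0.09 and -0.01 (SE 0.15). RPL3, at the peptidyl transferase centre, gave 0.08 and -0.04 (SE 0.12), RPL5 gave 0.06 and -0.06 (SE 0.11), RPL23 gave 0.07 and -0.01 (SE 0.10), and RPS3, at the mRNA entry channel, gave -0.16 and -0.09 (SE 0.14). Without PQY23_1 replicate 1 the PQY23_1 values were 0.004 for RPS6, 0.02 for RPS4X, -0.06 for RPL22, -0.08 for RPS27 and -0.08 for RPS27A. For RPL3, RPL5, RPL23 and RPS3 they were -0.01, -0.02, -0.01 and -0.24.

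RPS27L had 158, 127 and 134 CPM under PQY23_1 and 145, 146 and 134 CPM under PQY09, against 147, 157 and 153 CPM under DMSO. The PQY09 libraries were all below the DMSO libraries, by a log2 change of -0.11 (SE 0.08, adjusted p = 0.621, edgeR). Under PQY23_1 the groups overlapped, with a log2 change of -0.12 (SE 0.08, adjusted p = 0.525, edgeR). Without PQY23_1 replicate 1 that change was -0.22 (adjusted p = 0.156, edgeR).

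Within groups, members differed in how far single libraries departed. The median ratio of the highest to the lowest library was 1.24 under PQY23_1, 1.08 under PQY09 and 1.14 under DMSO over 78 members. The ratio exceeded 1.5 for 4 members under PQY23_1, 2 under PQY09 and 3 under DMSO. RPL29 under PQY09 had the widest at 2.22, and RPS19 under PQY09 had 1.57. RPL8, at the peptidyl transferase centre, had 1305, 711 and 1184 CPM under PQY23_1, so that replicate 2 had 0.571 times the mean of the others, against 1220.0, 1173 and 1227 CPM under DMSO. Under DMSO, RPS3A (1.59), RPL14 (1.52), RPL11 (1.51) and RPL26 (1.46) were the most variable. RPL26, near the tunnel exit, had 397, 579.9 and 445 CPM there, against 392, 408 and 447 CPM under PQY09. Different members had their odd values in different libraries, while PQY23_1 replicate 1 was high for nearly all.

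Members were also divided by properties that the selection by symbol did not use. Under PQY09 the median log2 change was -0.09 for 46 tested members with the tract at a RefSeq start (39 below 0) and -0.14 for 17 with a listed start and no tract (16 below 0). Members that host small nucleolar RNA genes stood at -0.14 (27 of 28 below 0) and the others at -0.08 (42 of 51 below 0). Under PQY23_1 the medians were 0.03 and 0.04 with and without the tract, and 0.01 and 0.04 for hosts and others. Without PQY23_1 replicate 1 they were -0.08 and -0.06, and -0.07 and -0.07. These are descriptions of overlapping gene groups, and their differences were not tested.

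Genes that act with the ribosome were counted from lists of related genes, and a change was called by edgeR as above. Of 18 translation factors and other mRNAs known to begin with the tract, 1 fell under each compound and 0 rose, beside 2.55% of all genes called under PQY23_1 and 2.85% under PQY09. DESeq2 called HNRNPA1 and EEF2 under PQY23_1 (against 8.92% of all genes), and EEF2 and NPM1 under PQY09 (against 8.42%). With limma-voom, HNRNPA1 was called under PQY23_1 (against 2.77%), and EEF2 and NPM1 under PQY09 (against 3.16%). EEF2, the translocation factor of elongation, had 2065 ± 43.8 CPM under PQY09, against 2395 ± 66.5 CPM under DMSO (SD, n = 3 each; log2 -0.21, adjusted p = 0.031, edgeR). It was not called when any DMSO library, any PQY09 library or PQY23_1 replicate 3 was left out (adjusted p up to 0.126). HNRNPA1, an RNA-binding protein of splicing, had 1170 ± 56.5 CPM under PQY23_1, against 1445 ± 35.3 CPM under DMSO (SD, n = 3 each; log2 -0.30, adjusted p = 0.0171, edgeR). It was not called without DMSO replicate 2 (adjusted p = 0.0731) or 3 (adjusted p = 0.0706, edgeR). The medians of this list were -0.05 under PQY23_1 and -0.12 under PQY09, with 10 and 17 of 18 below 0. Without PQY23_1 replicate 1 the median under PQY23_1 was -0.11.

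Of 10 genes that control translation of ribosomal protein mRNAs, 1 fell under PQY23_1 and 0 under PQY09, beside 2.55% and 2.85% of all genes called. At an unadjusted p below 0.05 there were 2 under PQY23_1 and 1 under PQY09, all lower. The shares of all genes at that level, in either direction, were 16.3% and 15.6%. EIF4EBP1, the translational repressor that mTOR phosphorylates, had 79.3 ± 6.09 CPM under PQY23_1, against 112 ± 6.86 CPM under DMSO (SD, n = 3 each; log2 -0.49, adjusted p = 0.023, edgeR). It was not called without DMSO replicate 1 or 2, or PQY23_1 replicate 2 or 3 (adjusted p up to 0.094, edgeR). DESeq2 called EIF4EBP1 under both compounds, and SESN2 under PQY23_1, against 8.92% of all genes under PQY23_1 and 8.42% under PQY09.

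The remaining lists held 0 genes called by edgeR and 0 by limma-voom in each comparison. Over all genes, 16.3% had an unadjusted p below 0.05 under PQY23_1 and 15.6% under PQY09. The shares that were lower at that level were 7.37% under PQY23_1 and 7.13% under PQY09, and the DESeq2 shares were those given above. Of 7 ribosomal proteins outside the symbol rule, among them RACK1, 3 had an unadjusted p below 0.05 under PQY23_1 and 1 under PQY09 (DESeq2 called 2 and 0). Ribosome biogenesis genes such as FBL and NOP56 (31 tested) had 8 under PQY23_1 and 6 under PQY09, all lower (DESeq2 called 3 and 1), with medians of -0.07 under both. They were below 0 for 21 and 26 of 31 members. Small nucleolar RNA host genes such as GAS5 (11 tested) had 1 and 3, all lower (DESeq2 called 1 and 0), with medians of -0.05 under PQY23_1 and -0.17 under PQY09. Mitochondrial ribosomal proteins (78 tested) had 10 and 6 (DESeq2 called 0 and 2), with medians of 0.06 under PQY23_1 and -0.02 under PQY09. The ribosomal protein pseudogenes (233 tested) had 9 and 12 (DESeq2 called 1 and 4), with medians of 0.08 under PQY23_1 and -0.12 under PQY09. Without PQY23_1 replicate 1 the medians under PQY23_1 were -0.01 for mitochondrial ribosomal proteins, -0.05 for pseudogenes, -0.13 for small nucleolar RNA host genes and -0.07 for biogenesis genes. Between PQY23_1 and PQY09, 27 pseudogenes had an unadjusted p below 0.05 in the higher direction, against 7.44% of all genes, and 1 in the lower, against 7.29%. DESeq2 called 7, against 7.93% of all genes. The median difference of the pseudogenes was 0.21, and 0.09 without PQY23_1 replicate 1. The 27 were not recounted without that library.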

How the data were processed

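RNA of 9 HepG2 libraries was analysed, 3 per group. The submitters' processing notes list HISAT2 2.0.4, StringTie 1.3.4d, cutadapt 1.9, DESeq2 and edgeR, with no roles, and the build hg38; they give no annotation release or strand setting. The estimated counts (expected counts), as deposited, hold whole numbers only and were used unchanged; how many counts a fragment gave is not stated. The deposited FPKM values, scaled by the authors for length and library size, hold 1e-04 where the count is 0, and served for levels between genes and for alternatives.

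Genes were kept by filterByExpr (minimum count 10, minimum total 15), which left 20157. All libraries were fitted together in edgeR 4.0.16 (TMM factors 0.977 to 1.026, a mean per group, 6 residual degrees of freedom, common biological coefficient of variation 29.7%). Quasi-likelihood p-values were adjusted by Benjamini-Hochberg over all tested genes within a comparison and called below 0.05. The SE was taken from the log2 change and F, and intervals are 95%. The PQY23_1 and PQY09 comparisons share the DMSO libraries. The fit was tested on simulated counts with planted changes larger than those of any member in the main analysis. That test therefore cannot show whether changes of the size seen here would be called.

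Members, related lists and alternatives were chosen with earlier results of these data known. Members described in the text were those with the 4 highest and 4 lowest changes per comparison, a panel, paralogs, the extremes of FPKM and the widest DMSO spreads. Some members that this choice includes are not reported here. RPL27, RPL4, RPL35A, RPL12, RPL7, RPL8, RPL13A, RPL36, RPL38, RPS16 and RPS28 were added after their values were seen. Alternatives used R 4.3.3, DESeq2 1.42.0 and limma 3.58.1. DESeq2 shares are over genes that it gave an adjusted p. Counts that stand for PCR copies of a molecule are not independent, so errors cover counting only in part.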

Additional observations from a re-analysis of the deposited data

How the results depend on the processing

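The counts of called members, the member medians and 43 named members were recomputed under 21 alternatives (18 for RPL3L): other scaling, filters and tools, FPKM, fewer groups, a replicate block and each library left out. Non-overlap counts, list medians and the splits by tract and host genes were not recomputed under all of them. The number of ribosomal protein genes called under PQY09 was 0 in the main analysis, 1 with a filter of 1 CPM in 3 libraries or with counts divided by 4, 2 with DESeq2 or with only the 2 groups compared, and 0 to 2 when single libraries were left out. The shares of all genes called were 5.38% with that filter, 4.38% with counts divided by 4, 8.42% with DESeq2 and 2.36% with only the 2 groups. In the leave-outs they were 1.13 to 3.01%. Under PQY23_1 the number of members called was 1 with DESeq2, against 8.92% of all genes. It was 1 with limma on log2(FPKM + 1) or log2(FPKM + 0.1), against 6.1% and 5.98%, and 0 to 1 in the leave-outs, against 0.663 to 1.77%. Between PQY23_1 and PQY09 it was 3 with DESeq2, against 7.93% of all genes, and 0 to 1 in the leave-outs, against 1.06 to 1.89%. The members called under PQY09 were RPSA and RPL7A, with RPL27 without PQY23_1 replicate 1 and RPS19 without PQY09 replicate 3. Under PQY23_1 RPSA alone was called. Between the compounds the members called were RPL12, RPL27 and RPL7 (DESeq2), RPS19 or RPL7A. The median log2 change over leave-outs ran from -0.13 (without PQY09 replicate 3) to -0.092 under PQY09, from -0.07 (without PQY23_1 replicate 1) to 0.09 under PQY23_1, and from 0.03 to 0.19 between the compounds. With total counts and no TMM factors the PQY23_1 median was -0.01, and on log2(FPKM + 1) it was 0.0008. Where values moved, the cause was not tested. Deviations of same-numbered libraries correlated at -0.03 to 0.05 over 9 pairs, against -0.05 to 0.04 over 18 other pairs. These correlations weigh genes of low and high counts alike, so they cannot show whether replicate numbers mark paired libraries. With the replicate block 0 members were called in each comparison, and the medians were -0.10 under PQY09, 0.02 under PQY23_1 and 0.12 between the compounds; HNRNPA1, EIF4EBP1 and EEF2 were then not called (adjusted p = 0.0523, 0.0621 and 0.0728, edgeR). With 3 libraries per group and a median SE of 0.10, a shift of the size of the PQY09 median lay within the 95% interval of a gene with that SE. The split of other genes by length was added after the data were seen.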
